A study of Mus musculus with 4 samples.

Results

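The ADAM and ADAMTS genes encode a family of metalloproteases, enzymes that hold a zinc ion and cut other proteins, together with relatives that have lost this activity. Its members were taken by symbol: Adam followed by digits and an optional letter, Adamts or Adamtsl followed by digits, and Adamdec1. This gave 57 of the 19296 genes with a named probe set, namely 34 Adam genes, Adamdec1, 18 Adamts genes and 4 Adamtsl genes. Measured values entered the choice in 1 way: where a gene had several probe sets, the brightest by its mean over the 4 arrays was used, without regard to genotype. The family was taken up with the large rises of Adam28 and Adamdec1 already known, so the differences of these 2 genes are given as a description, with no test.

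Expression was measured by Affymetrix whole-transcript arrays in ureters from male mice on a 129Sv/C57BL6 mix background. The 2 knockout mice were miR-143/145-/-, lacking the clustered genes of the microRNAs miR-143 and miR-145, and were 2.5 months old with hydronephrosis, a dilation of the kidney by retained urine. The 2 wild type mice were miR-143/145+/+, 4.5 months old, with kidneys labelled normal. Each mouse had 1 array, and genotype, age and kidney state changed together, so that their parts in any difference cannot be told apart. The labels name no tissue-specific driver of the deletion.

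ADAM proteins mostly sit in the cell membrane, where they release the outer parts of growth factors, cytokine receptors and adhesion molecules, a step called shedding. ADAMTS proteins are secreted and carry thrombospondin repeats that bind the matrix; they trim proteoglycans, procollagens and other matrix proteins. ADAMTS-like proteins keep the repeats but lack the protease domain. In muscular tubes such as the ureter these proteins act on the matrix around smooth muscle and in the connective tissue under the epithelium, while many other ADAM genes are used in testis and epididymis, where they serve sperm maturation and fertilisation.

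All values are log2 expression values as deposited, and a difference is knockout minus wild type on that scale. A background level of 6.58 was set from 1012 olfactory receptor genes as the 95th percentile of their mean values. The array medians were 7.89 and 7.89 in knockout, against 7.81 and 7.84 in wild type. The lower quartiles were 6.26 and 6.27 on the knockout arrays, against 6.36 and 6.45 on the wild type arrays, so that dim genes as a whole read lower in knockout. Mir145a measured 4.60 and 5.02 in knockout ureter, below background, against 8.28 and 8.42 in wild type ureter, and Mir143 measured 6.48 and 6.53, also below background, against 7.64 and 7.85. Of the smooth muscle and urothelium markers, 8 of 8 and 13 of 13 tested lay above background, as the labelled tissue would have. This does not single out the tissue, since 14208 of the 19296 genes lay above background, as did all 7 adipocyte markers.

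Of the 57 members, 36 lay above background in at least 1 genotype and 21 did not. Limma was fitted across all 19296 genes for knockout against wild type, with Benjamini-Hochberg adjustment and a threshold of 0.05. Adam28 and Adamdec1 are left out of the counts that follow. Of the other 55 members 1 rose, Adamts6, a share of 1.82%, beside 1.90% of all genes that rose and 2.38% that passed in either direction. None of the 55 passed as lower (0 of 55), beside 0.477% of all genes, and 54 did not pass. At an unadjusted limma p under 0.05, 11 of the 55 were higher and 8 were lower, where the shares over all genes were 12.7% and 13.8%. Without wild type replicate 1 or without wild type replicate 2, 0 of 19296 genes passed. The median difference was -0.05 over the 55 members and -0.02 over all genes. The 2 knockout mice lay wholly above or wholly below the 2 wild type mice for 35 of the 55 members (63.6%), and for 60.0% of all genes.

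**Figure D1:**
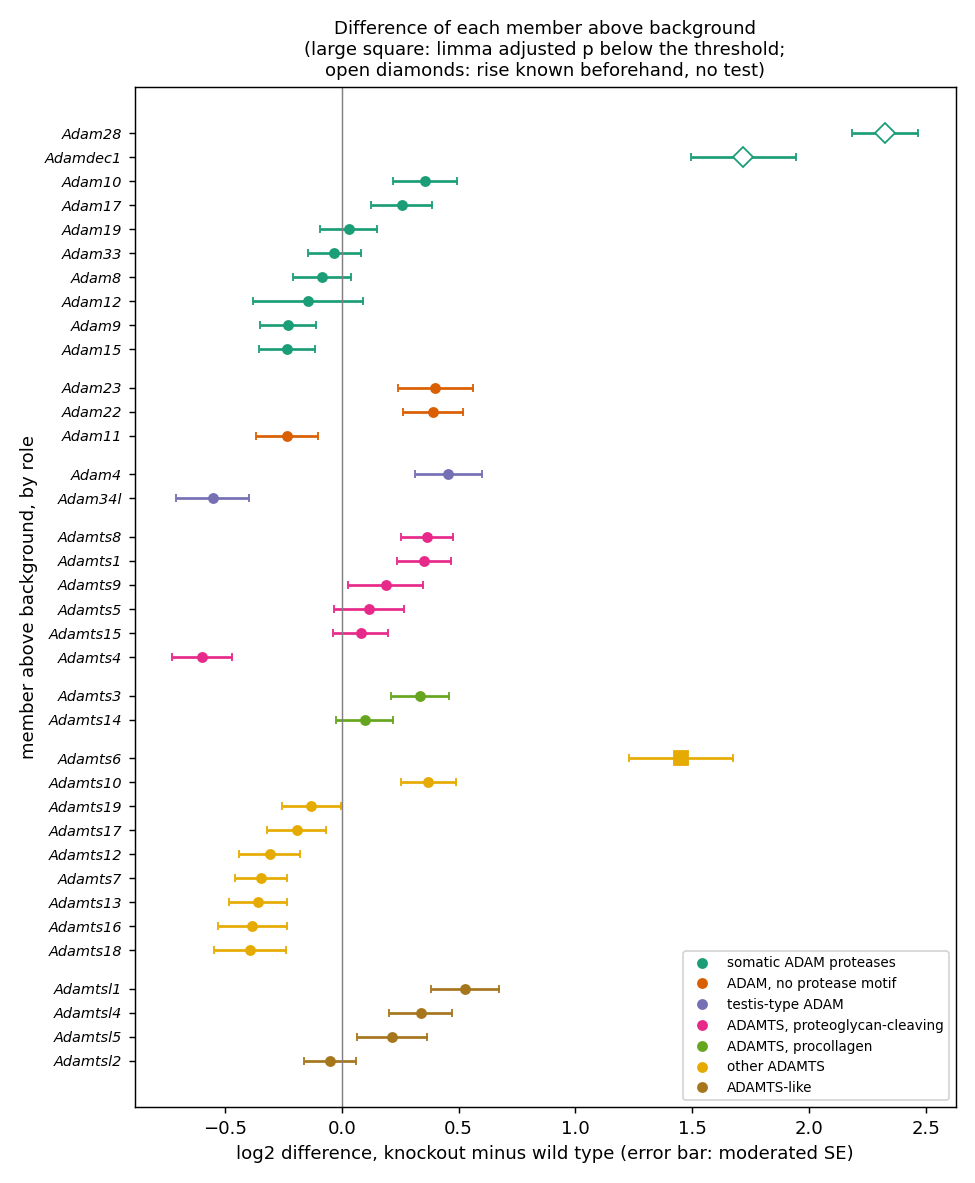
Difference between knockout and wild type ureter on the log2 scale for each of the 36 members above background, with the moderated standard error as error bar, grouped by role. Open diamonds mark Adam28 at 2.33 and Adamdec1 at 1.72, which have no test, and the large square marks Adamts6 at 1.45, which passed; the other members lie between -0.60 and 0.53.

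Adam28 and Adamdec1 had the largest differences of the family. Adam28 is a membrane-bound and secreted protease known from lymphocytes and, in rodents, from epididymis. It measured 9.20 and 9.53 in knockout ureter, against 7.04 and 7.04 in wild type ureter (probe set 10421143). The wild type pair was nearly identical, and both knockout values lay far above it. The difference was 2.33 (SE 0.14), or 5.01-fold, which was the largest rise among all genes tested.

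Adamdec1 encodes a secreted, shortened family member in which an aspartate stands in place of a histidine of the usual zinc site; it is known from macrophages, dendritic cells and the connective tissue of the gut lining. It measured 9.02 and 9.28 in knockout ureter, against 7.09 and 7.77 in wild type ureter. The genotypes did not overlap, although the wild type mice differed from each other more than the knockout mice did. The difference was 1.72 (SE 0.22), or 3.29-fold.

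**Figure D2:**
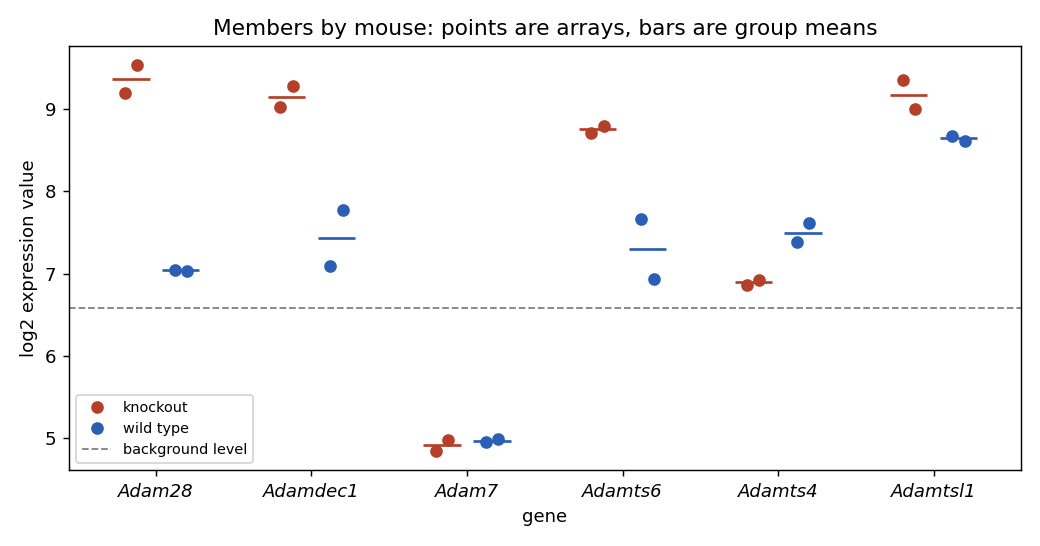
Log2 expression value of 6 members in each mouse, with a point per array, a bar for each group mean and a dashed line at the background level. Adam28, Adamdec1, Adamts6 and Adamtsl1 lay higher in both knockout mice, Adamts4 lay lower in both, and Adam7 was below background in all 4 mice.

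These 2 genes are direct neighbours on chromosome 14 in the annotation of assembly GRCm38.p6, which was used for gene order only. Adam7, an epididymal family member, lies on the far side of Adamdec1 with 1 annotated gene between them. It stayed below background, at 4.85 and 4.98 in knockout and 4.95 and 4.99 in wild type. The 5 nearest tested genes on each side of the pair were examined after the values were seen. Of these 10 genes, 2 rose and 8 did not pass, against 1.90% of all genes that rose. Stc1, which encodes the secreted glycoprotein stanniocalcin, is the next tested gene beyond Adam28; it measured 10.39 and 10.12 in knockout, against 8.98 and 8.91 in wild type, a difference of 1.31 (SE 0.13, limma adjusted p = 0.0148). Slc25a37, a mitochondrial iron carrier, rose by 0.76 (SE 0.13, limma adjusted p = 0.0441); with a further quantile normalization its adjusted p was 0.0673. Nkx2-6, which lies between them, differed by -0.38 (limma adjusted p = 0.106). On the side of Adam7 the differences lay between -0.38 and 0.20. There Nefl, at -0.38, and Nefm were below background on all 4 arrays, as Adam7 was. Synb, on the side of Stc1, was not above background either.

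**Figure D3:**
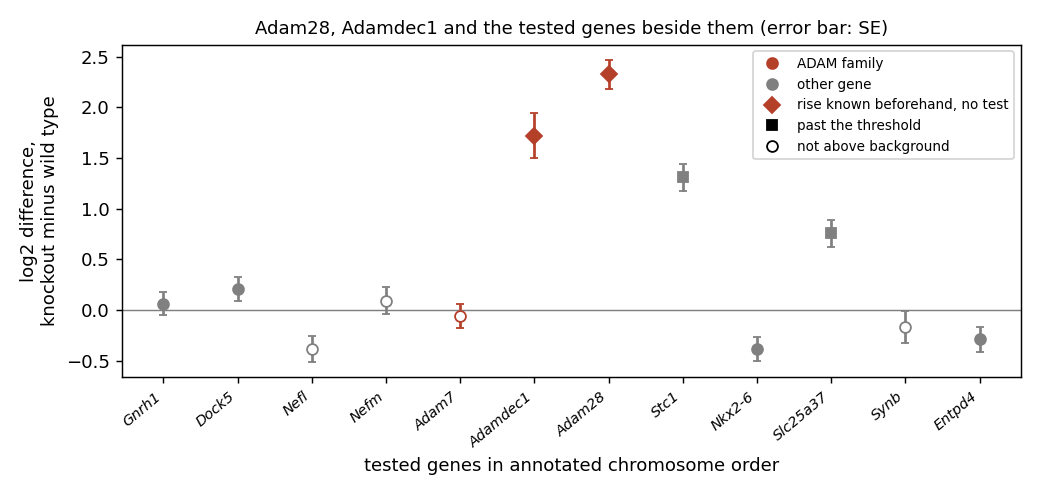
Difference between knockout and wild type on the log2 scale for Adamdec1, Adam28 and the 5 nearest tested genes on each side, in chromosome order, with the standard error as error bar. Diamonds mark Adamdec1 and Adam28, which have no test. Stc1 and Slc25a37 passed the threshold, while Adam7 and the genes beyond it lay between -0.38 and 0.20. Open markers show Nefl, Nefm, Adam7 and Synb, which were not above background.

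None of the tested markers of macrophages, dendritic cells, lymphocytes and plasma cells rose. Of 15 macrophage and dendritic cell markers tested, 0 passed, and 0 had an unadjusted limma p under 0.05. The list means were 8.17 and 8.12 in knockout and 8.21 and 8.21 in wild type. Its dendritic cell markers were dim: Itgax and Xcr1 were below background on all arrays, and Clec9a was not above it. Flt3, at 6.64 to 6.77, lay close to it. Of 12 lymphocyte and plasma cell markers, 2 fell, beside 0.477% of all genes, and 10 did not pass. The 2 were the immunoglobulin genes Igha and Ighm, whose falls were known from earlier results of these data. At an unadjusted limma p under 0.05, 7 were lower and 0 higher, beside 13.8% and 12.7% of all genes. Of these 7, Cd3d, Cd79a and Fcer2a were below background on all arrays and Cd8a in knockout, where dim genes as a whole read lower. The most negative difference of the list was that of Jchain, -2.54 (limma adjusted p = 0.0749), at 9.21 and 6.90 in knockout and 10.47 and 10.72 in wild type. The means of this list were 6.56 and 6.29 in knockout, against 7.00 and 7.17 in wild type, and 5 of its markers, Cd3d, Cd79a, Ms4a1, Cr2 and Fcer2a, were below background on all arrays. Of 12 epididymis and accessory gland markers 11 were below background on all arrays; the exception, Defb1, a defensin also made by kidney and urinary epithelia, rose by 0.98 (SE 0.11, limma adjusted p = 0.0208). In bulk tissue, more cells of a type and more RNA per cell cannot be told apart, here or for any member below.

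The mean levels of the lists for fibroblasts, urothelium and smooth muscle were higher in both knockout mice than in both wild type mice. The fibroblast list means were 10.93 and 11.06 in knockout and 10.37 and 10.44 in wild type. Of 9 fibroblast markers 3 passed the threshold, Lum, Col1a1 and Col1a2, all higher, beside 1.90% of all genes that rose. The rise of Lum was known from earlier results of these data, and all 3 genes return in the matrix list below. The urothelium list means were 11.91 and 12.28 in knockout and 11.35 and 11.64 in wild type, with 1 of 13 past the threshold. Those of smooth muscle were 11.70 and 11.53 in knockout and 11.32 and 11.25 in wild type, with 1 of 8. Both of these markers were higher, beside the same 1.90% of all genes. An unadjusted limma p under 0.05 was reached by all 13 urothelium, 7 of 9 fibroblast and 4 of 8 smooth muscle markers, each higher. Over all genes the share of such rises was 12.7%. Of the markers in these 3 lists, 2 did not follow the means: Des, the muscle filament gene desmin, measured 11.33 and 11.01 in knockout and 11.51 and 11.42 in wild type (difference -0.30, limma adjusted p = 0.229), and Mfap5, a microfibril gene, measured 9.53 and 9.36 in knockout and 9.18 and 9.45 in wild type, and overlapped. No marker of these 3 lists was below background, and their part in the rises of Adam28, Adamdec1 and Adamts6 was not tested. Kidney markers, all of the tubule except the glomerular gene Nphs1, averaged 8.51 and 7.19 in knockout and 7.16 and 7.56 in wild type. None of the 10 passed the threshold. Without adjustment, a limma p under 0.05 was reached by 2 higher genes, Cubn and Aqp1, and by 1 lower gene, Nphs1. Adipocyte markers averaged 12.45 and 11.93 in knockout and 12.78 and 12.67 in wild type. All 7 had differences below 0, 0 passed, and 4 had an unadjusted limma p under 0.05. Endothelium markers averaged 10.28 and 10.06 in knockout and 10.27 and 10.36 in wild type. Of these 9, 7 had differences below 0 and 2 above 0, and 0 passed. The part of kidney tissue, fat or endothelium in these differences was not tested.

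The other 8 ADAM proteases of somatic tissues were all above background, and none passed the threshold, with 1 of them at an unadjusted limma p under 0.05. Adam10, which cuts Notch receptors and the amyloid precursor protein, measured 10.98 and 11.28 in knockout, against 10.76 and 10.80 in wild type (difference 0.35, limma adjusted p = 0.161). Adam17, the enzyme that releases tumour necrosis factor, measured 9.87 and 9.89 in knockout and 9.75 and 9.50 in wild type (difference 0.26, limma adjusted p = 0.254). For both of these sheddases the knockout mice lay above the wild type mice, by less than the test could separate.

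Adam9 and Adam15, sheddases of many tissues, lay lower in both knockout mice without passing. Adam9 measured 10.43 and 10.39 in knockout and 10.72 and 10.56 in wild type, and Adam15 measured 10.39 and 10.34 in knockout and 10.53 and 10.68 in wild type, each with a difference of -0.23 (limma adjusted p = 0.263 and 0.252). The genotypes overlapped for Adam8, a protease of leukocytes, and for Adam19, a protease of heart and nerve development, with differences of -0.09 and 0.03. They also overlapped for Adam33, a gene known from airway smooth muscle and fibroblasts, at 7.97 and 7.94 in knockout and 7.95 and 8.02 in wild type. Adam12, a protease of growing muscle and activated fibroblasts, was the member whose knockout mice differed most, at 8.81 and 8.04, against 8.54 and 8.60 in wild type.

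Adam11, Adam22 and Adam23 encode membrane proteins that lack a working zinc site and act as receptors, best known at nerve cell contacts. Their 3 genes were above background, and none passed, with 2 at an unadjusted limma p under 0.05. Adam22 measured 7.43 and 7.47 in knockout and 7.17 and 6.94 in wild type, a difference of 0.39 (SE 0.13, limma adjusted p = 0.118). Adam23 measured 8.18 and 8.60 in knockout and 7.95 and 8.03 in wild type, a difference of 0.40 (SE 0.16, limma adjusted p = 0.172), and passed without knockout replicate 1 (adjusted p = 0.0400). For both receptors the knockout pair lay above the wild type pair, while Adam11 differed by -0.24 (limma adjusted p = 0.301).

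The ligands of these receptors are the secreted LGI proteins; 2 of their 4 genes rose, beside 1.90% of all genes, and the other two, Lgi1 and Lgi4, differed by -0.12 and -0.05 with overlapping mice. Lgi2 measured 9.30 and 9.31 in knockout, against 8.12 and 8.12 in wild type, a difference of 1.19 (SE 0.11, limma adjusted p = 0.0147). Lgi3 measured 10.22 and 10.16 in knockout, against 8.82 and 8.44 in wild type, a difference of 1.56 (SE 0.15, limma adjusted p = 0.0148). The knockout mice of each gene agreed closely and lay above both wild type mice. Of 6 tested nerve and glia markers, 0 passed, with 2 at an unadjusted limma p under 0.05, both lower; the list means were 7.18 and 7.13 in knockout and 7.30 and 7.41 in wild type.

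Among the ADAMTS proteases that cut proteoglycans such as versican and aggrecan, 5 had differences above 0 and 2 below 0, Adamts4 and Adamts20. Of 7 tested, 6 were above background and none passed; an unadjusted limma p under 0.05 was reached by 2 higher and 1 lower gene. Adamts4, an aggrecanase, had the most negative difference of the whole family. It measured 6.87 and 6.93 in knockout, against 7.38 and 7.61 in wild type, and the 2 genotypes did not overlap. The difference was -0.60 (SE 0.13, limma adjusted p = 0.0587); it passed with the arrays centred on their medians (adjusted p = 0.0494) and with robust eBayes (0.0446).

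Adamts1, which cuts versican and is induced in remodelling tissue, measured 9.60 and 9.52 in knockout and 9.17 and 9.25 in wild type (difference 0.35, limma adjusted p = 0.118). Its chromosomal neighbour Adamts5, the other main aggrecanase, overlapped between genotypes, at 9.84 and 9.70 in knockout and 9.83 and 9.48 in wild type. Adamts8 and Adamts15 are also neighbours. Adamts8 measured 7.42 and 7.46 in knockout and 7.09 and 7.06 in wild type (difference 0.37, limma adjusted p = 0.106), while Adamts15 differed by 0.08 with overlapping mice. In each of these 2 neighbouring pairs, 1 gene separated the genotypes and the other did not, where 60.0% of all genes did. Neither gene of either pair passed. Adamts9 overlapped as well, with a difference of 0.19, and Adamts20 was not above background.

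Adamts3 and Adamts14 remove the amino-terminal propeptide of procollagens. Adamts3 measured 7.81 and 7.82 in knockout and 7.58 and 7.38 in wild type, a difference of 0.33 (SE 0.12, limma adjusted p = 0.147). Adamts14 measured 7.46 and 7.54 in knockout and 7.32 and 7.49 in wild type, and overlapped. Neither passed, with Adamts3 at an unadjusted limma p under 0.05. Adamts2 and Adamtsl3 were not analysed here.

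Of the 9 remaining ADAMTS proteases 1 passed, as higher, beside 1.90% of all genes. Adamts6, a close relative of Adamts10, measured 8.71 and 8.79 in knockout, against 7.66 and 6.94 in wild type. The knockout mice agreed, while 1 wild type mouse lay near the background level and the other well above it. The difference was 1.45 (SE 0.22, limma adjusted p = 0.0359), or 2.74-fold. With a further quantile normalization the adjusted p was 0.0629. It also no longer passed without wild type replicate 1 (difference 1.81, adjusted p = 0.183) or without wild type replicate 2 (1.09, 0.202).

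Adamts10, linked to fibrillin microfibrils, measured 8.78 and 8.89 in knockout and 8.42 and 8.51 in wild type (difference 0.37, limma adjusted p = 0.114). The other 7 genes of this group all had differences below 0, and none passed. Of the 9 genes of the group, 5 were lower at an unadjusted limma p under 0.05, beside 13.8% of all genes. Adamts7, a protease of cartilage oligomeric matrix protein, measured 7.27 and 7.33 in knockout, against 7.65 and 7.63 in wild type (limma adjusted p = 0.117). Adamts12, its close relative, measured 8.26 and 8.03 in knockout, against 8.50 and 8.42 in wild type (limma adjusted p = 0.185). Both genes lay lower in both knockout mice.

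Adamts13, which cuts von Willebrand factor, was below background in knockout and at least 1.17-fold lower than in wild type, without passing (limma adjusted p = 0.129). For this bound the mean of the wild type mice was divided by the background level. Adamts18 was likewise below background in knockout and at least 1.16-fold lower there (limma adjusted p = 0.162), and Adamts16, dim in both genotypes, differed by -0.38 (limma adjusted p = 0.158). These 3 genes lie close to background, where dim genes as a whole read lower in knockout. Adamts17 and Adamts19 differed by -0.19 and -0.13, and the mice of the 2 genotypes overlapped for Adamts19.

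Among the ADAMTS-like genes, several of whose products bind fibrillin microfibrils and none of which can cut them, 4 were tested, all above background, and none passed, with 2 at an unadjusted limma p under 0.05. Adamtsl1, which encodes punctin, measured 9.35 and 9.00 in knockout, against 8.67 and 8.61 in wild type, a difference of 0.53 (SE 0.15, limma adjusted p = 0.0897). It passed without knockout replicate 2 (adjusted p = 0.0435). Adamtsl4, a gene of the lens zonule, measured 8.42 and 8.45 in knockout and 7.95 and 8.24 in wild type (difference 0.34, limma adjusted p = 0.173). The knockout mice lay above the wild type mice for both. Adamtsl5 overlapped, and Adamtsl2 measured between 7.32 and 7.38 on all 4 arrays.

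The 22 ADAM genes of testis and epididymis were mostly dim: 20 were not above background, with values between 3.60 and 6.52 on single arrays, and 0 of the 22 passed; 1 higher and 2 lower genes had an unadjusted limma p under 0.05. The exceptions were Adam4 and Adam34l, both testis genes in the mouse and both near background. Adam4 measured 7.21 and 6.87 in knockout and 6.59 and 6.57 in wild type (difference 0.46, limma adjusted p = 0.110). Adam34l was below background in knockout, at 6.20 and 6.29, against 6.60 and 7.00 in wild type, so that it was at least 1.17-fold lower in knockout, without passing (limma adjusted p = 0.0928). Many genes of this group stand side by side: of the 16 neighbouring pairs of family members with at most 2 annotated genes between them, 3 had both genes above background, namely Adamdec1 with Adam28, Adamts1 with Adamts5, and Adamts15 with Adamts8. The genes of Adam26a and Adam34, which flank Adam34l, were not above background, nor was Adam21 beside Adam4.

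Several probe sets, covering different parts of the transcript, allowed a check within 4 members. They were read on the same 4 arrays and so add no further mice. For Adamts3 all 16 probe sets had a difference above 0, from 0.05 to 0.60 with a median of 0.27. Of these, 13 separated the genotypes, where 60.0% of all genes did so. For Adamts9 all 6 lay above 0, from 0.01 to 0.35, and the 2 probe sets of Adamtsl1 read 0.43 and 0.53. Of the Adamts3 probe sets 10 were above background, and of the Adamts9 probe sets 1 separated the genotypes. Limma over all 20728 probe sets passed none of the probe sets of the 4 genes (lowest adjusted p = 0.0619). With that test 280 probe sets passed as higher and 57 as lower.

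The probe sets of Adamts17 differed in sign. Its 2 brightest probe sets lay lower in both knockout mice, with differences of -0.19 and -0.28. A pair of dimmer ones lay higher in both knockout mice: probe set 10554045 measured 7.16 and 7.21 in knockout, against 6.69 and 6.83 in wild type, and probe set 10554063 measured 7.02 and 7.22, against 6.54 and 6.76. Their differences of 0.42 and 0.47 had adjusted p values of 0.0973 and 0.104 in limma over all probe sets. The last probe set was not above background. The mean of all 5 differed by 0.08, opposite in sign to the brightest.

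**Figure D4:**
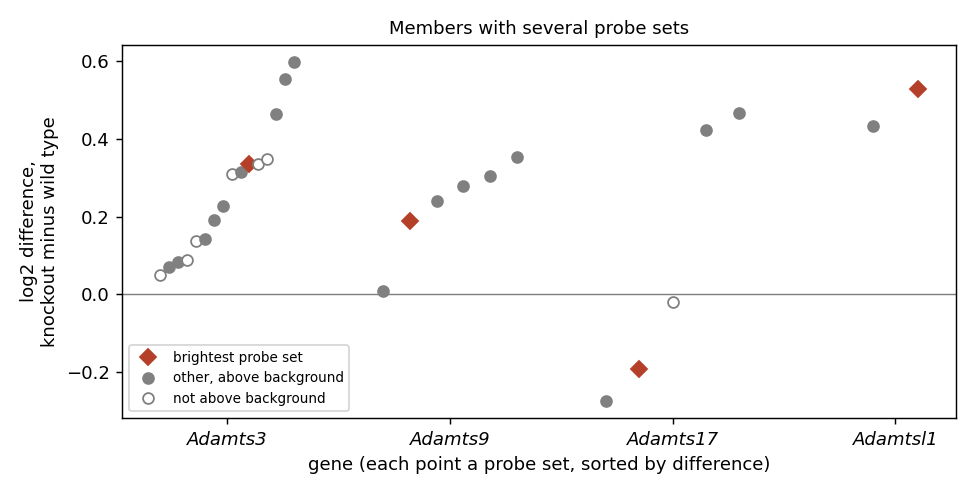
Difference between knockout and wild type on the log2 scale for every probe set of the 4 members with several, a point per probe set sorted by difference within its gene. All probe sets of Adamts3, Adamts9 and Adamtsl1 lie above 0, while those of Adamts17 lie from -0.28 to 0.47.

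The genes that work with the family were read from lists of its inhibitors, partners and substrates. Of 7 tested inhibitors none passed, though 3 higher and 1 lower gene had an unadjusted limma p under 0.05. Timp2 and Reck, a secreted and a membrane-anchored inhibitor of metalloproteases, differed by 0.44 and 0.34 (limma adjusted p = 0.110 and 0.124). Of 14 partners and activating convertases of ADAM10 and ADAM17 none passed, though 1 higher and 2 lower genes had an unadjusted limma p under 0.05. Tspan5, a tetraspanin that carries ADAM10 to the cell surface, measured 9.14 and 9.42 in knockout, against 8.80 and 8.75 in wild type (difference 0.51, limma adjusted p = 0.0835), in the same direction as Adam10 itself; without knockout replicate 1 it passed (adjusted p = 0.0307). Tspan10, another of these tetraspanins, differed by -0.38 (limma adjusted p = 0.159).

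Of 31 tested genes whose proteins are released by ADAM sheddases, 1 rose, beside 1.90% of all genes, and 1 fell, beside 0.477%. The other 29 did not pass, and the median difference of the list was 0.10. The rise of the first, Vcam1, was known from earlier results of these data, and without it 0 of 30 rose, with 10 higher at an unadjusted limma p under 0.05. Cdh2, the adhesion protein N-cadherin and a substrate of ADAM10, measured 9.16 and 8.73 in knockout, against 10.14 and 9.92 in wild type, a difference of -1.08 (SE 0.17, limma adjusted p = 0.0368). Vcam1, an adhesion molecule shed by ADAM17, measured 9.18 and 9.46 in knockout, against 8.31 and 8.55 in wild type, a difference of 0.89 (SE 0.15, limma adjusted p = 0.0403); with a further quantile normalization the adjusted p was 0.0641.

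Matrix substrates and partners of the ADAMTS and ADAMTS-like proteins formed the last list, which also held the 4 LGI genes. Of 37 tested, 8 rose, beside 1.90% of all genes, 0 fell, with 5 of the lower genes at an unadjusted limma p under 0.05, and 29 did not pass; the median difference was 0.12, and the calls include the 2 LGI genes given above. Col1a1 and Col1a2, the chains of the type I procollagen that Adamts3 and Adamts14 process, rose by 0.96 and 0.79 (limma adjusted p = 0.0416 and 0.0454), and both missed the threshold with a further quantile normalization (0.0647 and 0.0669). Col1a2 missed it also with centred arrays (0.0506) and without knockout replicate 2 (0.0650). The proteoglycan genes Lum and Fmod rose by 1.70 and 1.14 (limma adjusted p = 0.0147 and 0.0204), the matricellular gene Thbs1 by 0.90 and the microfibril gene Mfap4 by 2.25 (0.0319 and 0.0111). The rises of Mfap4 and Lum were known from earlier results of these data. Without them 6 of 35 rose, or 17.1%, and these 6 still include Lgi2 and Lgi3.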

How the data were processed

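The deposited log2 expression values give 1 number for each probe set on each array. Per the submitters' processing notes, the tools included RMA, R 2.15.0 and limma 3.12.1. Each array held 500 ng of total RNA from 1 mouse, per the labels' protocols. RMA makes the distributions of the arrays more alike, so a shift common to most genes is lessened. The medians and lower quartiles of the deposited values still differed between arrays, as given above. No genome build for the probe sets was found, that is, it was not given in the sources used here.

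Of 23309 probe sets, 20728 had 1 gene symbol in the platform annotation, 1174 several and 1407 none; only the first kind was used, at the brightest probe set per gene, which left 19296 genes. The labels call the mice of a genotype biological replicates. The contrast of knockout against wild type was fitted over all genes with lmFit and eBayes of limma 3.58.1 under R 4.3.3, with Benjamini-Hochberg adjustment; SE is the moderated standard error. The fit was tested on simulated data. With 2 mice per genotype the number of arrays limits the precision. Where a genotype lay below background on both arrays, a fold is a bound against the background level.

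The members, lists and tests were chosen with earlier results of these data known. Named genes were the members past the threshold, the 8 largest rises and 8 largest falls above background, members above background in role lists of at most 10 genes, neighbouring members and members with several probe sets; from each list of other genes, those past the threshold and the 2 of smallest p above background. Alternatives were a replicate block, quantile normalization applied again, median-centred arrays, a filter on dim genes, averaging over the probe sets of a gene, robust eBayes, eBayes with an intensity trend, weights per array and leaving out each mouse. Testing every probe set was added after seeing the data.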

Additional observations from a re-analysis of the deposited data

How the results depend on the processing

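Over all genes 367 were higher and 92 lower; these counts became 164 and 50 with a further quantile normalization and 655 and 247 with robust eBayes. After median-centring of each array 245 rose and 148 fell, so the split between rises and falls depended on the scaling, and 147 were lower when genes above background alone were tested. Leaving out 1 mouse gave 0 to 1115 higher and 0 to 629 lower genes, and both ranges end at 0 because no gene passed without wild type replicate 1 or without wild type replicate 2 (4253 and 3079 genes at an unadjusted p under 0.05); the lone wild type mouse is then assumed to vary like the knockout pair. The family count of 3 higher, which includes Adam28 and Adamdec1 and supports no statement about them, became 0 to 4 on leaving out 1 mouse, and the count of 0 lower became 1 with centred arrays and 1 with robust eBayes, in both cases Adamts4. Adam28 differed by 2.16 to 2.49 and Adamdec1 by 1.38 to 2.06 on leaving out 1 mouse. Replicate numbers are shared by the genotypes, but the deviations of mice of the same number did not correlate (-0.01), so the numbers are not read as pairs. With a replicate block 1164 genes were higher and 758 lower, and 2 family members were lower. Small differences that changed sign were those of Adam19 (-0.0567 with quantile normalization, -0.0389 with centring), Adam8, Adamts19 and Adam7 (0.0121, 0.0185 and 0.0199 with quantile normalization), Adamts17 (0.0808 with the mean of its probe sets) and Gnrh1, a flanking gene (-0.00489 with centring). On leaving out 1 mouse the difference also changed sign: it ranged from -0.53 to 0.24 for Adam12, -0.0403 to 0.0999 for Adam19, -0.0642 to 0.000779 for Adam33, -0.17 to 0.00302 for Adam8, -0.0605 to 0.29 for Adamts5, -0.0284 to 0.40 for Adamts9, -0.12 to 0.00768 for Adam7, -0.0122 to 0.20 for Nefm and -0.37 to 0.039 for Synb. The cause of these changes was not tested.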
